A study of Gallus gallus with 12 samples.

Results

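Breast muscle of chickens fed less phosphorus and calcium was compared with breast muscle of chickens on a normal diet. The comparison used 8 of the 12 arrays of the study, 4 of restricted and 4 of normal muscle, chosen by the diet in their titles. All groups were Ross PM3 broilers sampled at day 36, and each array held RNA of a pool of 4 birds from Pectoralis major, the large flight muscle. The groups were the restricted diet (4 pools) and the normal diet (4 pools). The labels call them NC and PC, and neither of these carried an added enzyme. The other 4 arrays, from birds given phytase on top of the restricted diet, entered the fit only as a further estimate of the spread between pools. Levels are on a log2 scale, so that a difference of 1 is a doubling. The submitters' stated aim was to find pathways that the diet might affect.

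Phosphate enters muscle through sodium-dependent carriers and is held there as ATP, phosphocreatine, phospholipids and inositol phosphates, while calcium is stored in the sarcoplasmic reticulum and released at each contraction. Much of the phosphorus of plant feed is bound as phytate, which birds digest poorly, and low dietary phosphorus and calcium are known mainly for their effects on bone. The breast muscle of broilers is almost wholly fast and glycolytic. Its tissue also holds fat cells, fibroblasts, vessels, nerves and blood, and avian red blood cells keep a nucleus.

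The arrays showed skeletal muscle on both diets. ACTA1, skeletal actin, averaged 13.58 ± 0.04 in restricted and 13.60 ± 0.04 in normal muscle (SD, n = 4 each). The fast troponins TNNT3, TNNI2 and TNNC2 averaged between 11.87 and 12.46 in restricted muscle and between 11.90 and 12.48 in normal muscle. TNNC1, the slow and cardiac troponin C, was as bright, at 12.26 ± 0.03 in restricted and 12.29 ± 0.10 in normal muscle, while MYH7, a slow and cardiac myosin, was at 3.86 ± 0.11 and 3.82 ± 0.27 on the same diets. PVALB, parvalbumin, which is known from fast fibres of other species, was dim at 2.65 ± 0.57 in restricted and 2.28 ± 0.10 in normal muscle (SD, n = 4 each). Of 3 genes listed as liver markers ALB was dim, at 1.64 ± 0.11 in restricted and 1.73 ± 0.11 in normal muscle, and TTR was at 3.15 ± 0.88 and 3.22 ± 0.55. APOA1 was bright, at 9.71 ± 0.60 in restricted and 9.25 ± 0.38 in normal muscle. Correlations between arrays ran from 0.959 to 0.985, and array medians from 3.11 to 3.19 in the restricted and from 3.10 to 3.16 in the normal pools.

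Of 20804 transcript clusters, the probe groups that stand for a gene or part of one, 12482 had a mean of at least 2.67 over the 12 arrays and were tested in limma. After Benjamini-Hochberg adjustment 0 of them (0%) passed 0.05, and the smallest adjusted p was 0.241. Without adjustment 324 clusters (2.6%) were higher and 338 (2.71%) lower in restricted muscle at p under 0.05, or 662 where 624 are expected without any effect. The lowest restricted pool exceeded the highest normal pool for 145 clusters (1.16%), and the reverse held for 144 (1.15%). With 4 pools per diet, random order alone sets the pools of some clusters apart, so this separation is a description and not a test. A difference above 0 was found for 48.7% of clusters, and the median difference was -0.005. The SE of a difference was 0.17 at the median, and 99% of absolute differences were under 0.74. None of the genes named here passed the adjusted threshold, and the differences are given as sizes with their errors. Because the birds' assignment to pools is not in the labels, SDs describe the spread between these pools. The limma p-values weigh a difference of means against a spread estimated over the 12 arrays, and they too refer to these pools only.

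The restricted pools were less alike than the normal pools. The SD within a diet had a median of 0.261 in restricted and 0.203 in normal muscle. An SD over 0.5 was found for 1419 clusters in restricted and 614 in normal muscle. Restricted replicate 1 lay more than 1 below the mean of the other restricted pools for 336 clusters and more than 1 above it for 185, and restricted replicate 3 did so for 212 and 183. Among the normal pools, replicate 3 had the most, 125 below and 62 above. When arrays were weighted by how well they followed their group, restricted replicates 1 and 3 had weights of 0.49 and 0.56, and the normal pools had weights from 0.94 to 1.43.

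W-linked signal also differed between pools. In birds, females carry a Z and a W chromosome and males 2 Z chromosomes, and the labels do not give the sex of the birds. HINTW, a W-linked relative of a nucleotide-binding protein gene with many copies, was at 8.06, 8.08, 2.76 and 2.27 in restricted replicates 1 to 4, against 2.70, 2.35, 2.34 and 2.32 in the normal pools. ATP5F1AW, the W-linked copy of an ATP synthase subunit, chosen after its values were seen, was at 6.21, 5.96, 4.73 and 4.26 in the restricted pools, against 4.30, 4.08, 4.12 and 4.29 in the normal pools. Restricted replicates 1 and 2 thus carried W-linked signal that no normal pool had. Of the 43 clusters with a difference above 1, 27 were high in these pools, and they held 15 distinct sets of values.

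Z-linked clusters leaned the other way. Of 330 tested, 113 (34.2%) were higher in restricted muscle, with a median difference of -0.081. Their median deviation from the mean of the 12 arrays was -0.231, -0.118, 0.072 and -0.016 in restricted replicates 1 to 4, against -0.015, 0.015, 0.002 and 0.079 in the normal pools. HINTW was also high in phytase replicates 1 and 4, at 7.66 and 7.57. Leaving out the arrays with HINTW signal therefore kept restricted replicates 3 and 4, all 4 normal pools and phytase replicates 2 and 3. In that setting the median difference of Z-linked clusters was 0.026. Autosomes differed by size class as well: on chromosomes 1 to 5 of the GRCg7b assembly 42.3% of 3329 clusters were higher in restricted muscle, and on chromosomes 11 and up 53.6% of 3028. Restricted replicate 1 had the lowest deviation on chromosomes 1 to 5, at -0.118, where the normal pools lay between -0.022 and 0.037. The median difference was -0.037 on chromosomes 1 to 5 and 0.017 on chromosomes 11 and up. Both changed sign without the arrays with HINTW signal, at 0.005 and -0.005, and without restricted replicate 1 alone the value on chromosomes 1 to 5 was -0.007. The part of sex in the other results was not tested directly. Without the arrays with HINTW signal 6 of the 28 gene list medians described here changed sign, and of 127 named genes 9 changed sign, 26 shrank and 14 grew by more than 1.5 times.

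**Figure D1:**
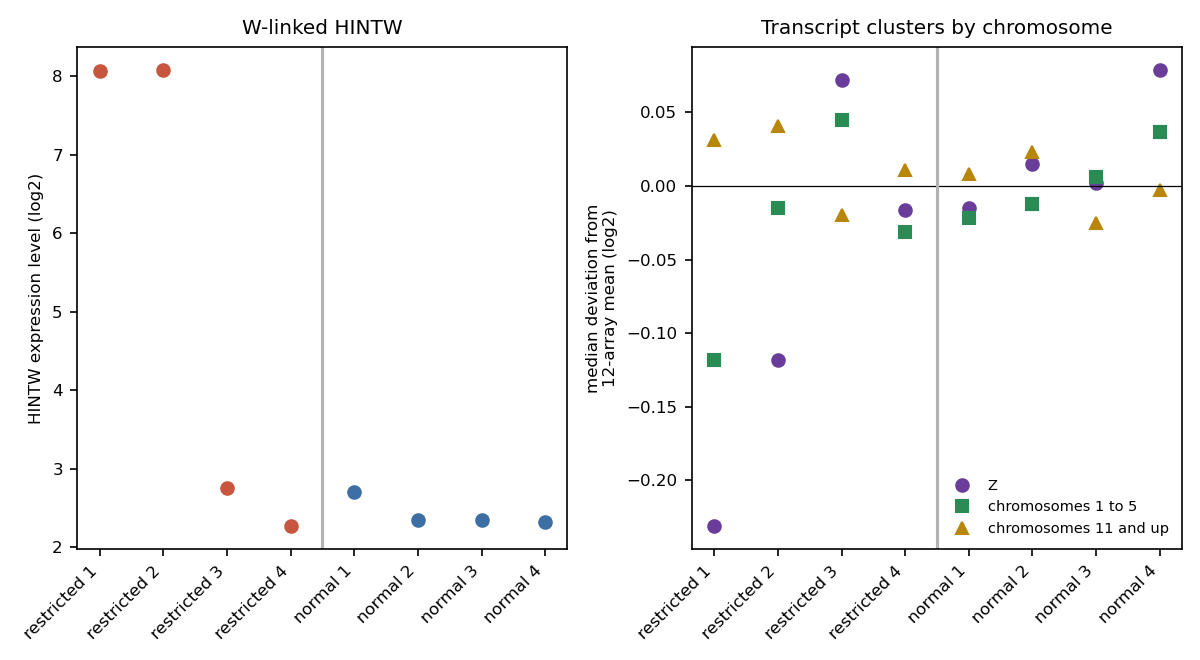
The left panel gives the HINTW level (log2) in each pool, and the right panel the median deviation from the 12-array mean (log2) of clusters on Z, on chromosomes 1 to 5 and on chromosomes 11 and up. Restricted replicates 1 and 2 have HINTW levels above 8, all other pools shown are under 3, and the Z-linked deviation is lowest in restricted replicate 1, at -0.231.

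Globin transcripts of red blood cells gave the largest gene-level differences with pools apart. HBAD, which encodes the alpha-D chain, was at 8.72, 8.46, 10.12 and 8.38 in the restricted pools, against 7.39, 7.17, 7.01 and 7.42 in the normal pools. The difference was 1.67 ± 0.34 (SE), or 3.19-fold, with a limma adjusted p of 0.368. HBA1, which encodes the alpha-A chain, was at 7.55, 7.52, 8.80 and 7.29 in the restricted pools, against 5.95, 6.41, 6.33 and 6.54 in the normal pools. Its difference was 1.48 ± 0.28 (SE), or 2.79-fold, with a limma adjusted p of 0.314. Every restricted pool lay above every normal pool for both genes, and restricted replicate 3 stood highest. Without the arrays with HINTW signal, which keeps only restricted replicates 3 and 4, the differences were 2.0 for HBAD and 1.74 for HBA1. Restricted replicate 3, the highest pool, weighs more in that setting. Leaving out any of the 8 pools gave at least 1.27 for HBAD and 1.15 for HBA1. In whole tissue, more blood in a sample and more globin RNA per cell cannot be told apart.

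Other red cell genes gave a mixed picture. SLC4A1, the anion exchanger of the red cell membrane, was too dim to be tested, but its pools did not overlap, at 2.55, 3.04, 3.01 and 2.64 in restricted muscle, against 2.19, 2.43, 1.96 and 2.0 in normal muscle. HBZ and HBE, embryonic globins, and EPB42, RHAG, RHCE, HEMGN and TAL1, genes of red cell membranes or red cell precursors, were also under the brightness limit, and their pools overlapped. The mean of EPB42, a membrane protein, was 2.80 ± 0.36 in restricted and 2.55 ± 0.23 in normal muscle, and the mean of RHAG was 1.98 ± 0.26 and 1.97 ± 0.12 (SD, n = 4 each). Of the 6 tested members of the red cell list 5 were higher in restricted muscle, with a median of 0.245, against 48.7% of all clusters and a median of -0.005. Besides the globins these were EPB41, a membrane skeleton protein (0.29 ± 0.19, SE), TFRC, the transferrin receptor (0.20 ± 0.22), and LMO2, a cofactor in blood precursors (0.18 ± 0.31). BPGM, which makes bisphosphoglycerate, differed by -0.15 ± 0.17. EPB41 differed by 0.12 without normal replicate 3, and LMO2 by -0.03 without the arrays with HINTW signal.

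The mean deviation of the 6 red cell genes was 0.43, 0.16, 0.88 and 0.03 in restricted replicates 1 to 4, against -0.27, -0.27, -0.37 and -0.05 in the normal pools. This order follows the 2 globins, which are the largest of the 6 differences: the pools of EPB41, TFRC, BPGM and LMO2 overlapped, and in restricted replicate 4 BPGM was at 10.01, its lowest level of the 8 pools, and LMO2 at 4.73, where normal replicate 3 had 4.68. Genes that make heme or carry iron did not share this order: 6 of 15 were higher in restricted muscle, with a median of -0.033. UROD, a heme synthesis enzyme, differed by 0.30 ± 0.16 (SE), and by 0.19 without the arrays with HINTW signal. FTH1, the ferritin heavy chain, differed by 0.29 ± 0.16, and by 0.16 without normal replicate 3.

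Other named genes with the largest differences were mostly dim. Among 7954 tested genes, taking the brightest cluster of each, the pools did not overlap for 90 that were higher and 93 that were lower in restricted muscle. The 15 largest in each direction were taken as named genes. The smallest of them differed by 0.518 and -0.527, and the next in order by 0.517 and -0.518. Of these 30 genes 29 had an unadjusted limma p under 0.05, where 2.6% of all clusters were higher and 2.71% lower at that threshold. The genes were chosen from the same values by size and separation, so this count is no support for a difference. Of the 30, 23 shrank by more than 1.5 times when an offset of 16 was added before the logarithm, which damps dim signals.

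On the higher side, after the globins, MRM1, a methyltransferase of mitochondrial ribosomal RNA, was at 3.56, 3.24, 3.50 and 3.27 in the restricted pools, against 2.72, 2.74, 2.76 and 2.70 in the normal pools. It had the smallest adjusted p of any tested cluster, shared with a cluster of FBXO38 and 2 clusters with no symbol (difference 0.66 ± 0.12, SE, limma adjusted p = 0.241). The normal pools were almost equal, near the brightness limit. SH3GL1, an endophilin of membrane uptake, was at 3.32, 3.83, 3.71 and 3.65 in the restricted pools, against 2.97, 3.22, 2.75 and 2.73 in the normal pools (0.71 ± 0.15, SE, limma adjusted p = 0.487). PTK2B, a tyrosine kinase that responds to calcium, was at 3.38, 3.53, 3.22 and 3.52 in the restricted pools, against 3.21, 2.88, 2.57 and 2.67 in the normal pools, and its highest normal pool came within 0.01 of its lowest restricted pool. The difference was 0.58 ± 0.17 (SE).

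The rest of the higher genes included LMNB1, a nuclear lamina protein (0.57 ± 0.19, SE), CROCC, the rootletin of ciliary rootlets (0.55 ± 0.17), and SLC38A4, an amino acid carrier (0.55 ± 0.20). SLC27A4, a fatty acid transport protein, differed by 0.56 ± 0.19 and MFSD10, a member of a carrier family, by 0.59 ± 0.21. TMEM39B, PLACL2, FAM78B and EVA1A differed by 0.52 to 0.61, with 0.35 for FAM78B without the arrays with HINTW signal. MIR1611, a microRNA gene, was represented by clusters that disagreed: the brighter differed by 0.96 ± 0.34 with pools apart, and the other by -0.31 ± 0.20 with pools overlapping. With the offset of 16 the higher genes other than the globins differed by 0.17 to 0.38.

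On the lower side, COQ6, a hydroxylase of coenzyme Q synthesis, was at 2.66, 2.53, 2.77 and 2.57 in the restricted pools, against 3.60, 3.30, 3.49 and 3.13 in the normal pools. The difference was -0.75 ± 0.15 (SE), with a limma adjusted p of 0.353, and with the offset of 16 it was -0.25. Because 3 of the 4 restricted pools lay under the brightness limit, no fold is given. RSBN1 was at 3.01, 3.12, 3.42 and 3.19 in the restricted pools, against 3.91, 3.84, 4.12 and 3.79 in the normal pools (-0.73 ± 0.17, SE, limma adjusted p = 0.582). POP5, a subunit of RNase P and RNase MRP, was at 3.04, 2.92, 2.84 and 2.59 in the restricted pools, against 3.50, 3.24, 3.58 and 3.88 in the normal pools (-0.70 ± 0.18, SE, limma adjusted p = 0.827). For each of these genes all restricted pools lay below all normal pools.

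GYG1 and USP25 were the lower genes of this group with high signal, along with DCUN1D5. GYG1, glycogenin, the protein primer of glycogen, was at 7.08, 7.09, 7.37 and 7.32 in the restricted pools, against 7.59, 7.57, 7.92 and 7.93 in the normal pools. The difference was -0.54 ± 0.19 (SE), and with the offset of 16 it was -0.49. USP25, a deubiquitinase, differed by -0.53 ± 0.21, and by -0.28 without the arrays with HINTW signal. DCUN1D5, which promotes neddylation, differed by -0.62 ± 0.36 and was the member of the 30 with an unadjusted p above 0.05. CTH, which makes cysteine from cystathionine, was at 4.06, 4.59, 4.62 and 4.35 in the restricted pools, against 4.80, 4.92, 4.97 and 5.18 in the normal pools (-0.56 ± 0.16, SE, limma adjusted p = 0.904). Its pools were apart, with restricted replicate 1 the lowest.

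Of the remaining lower genes, PUM3, a nucleolar RNA-binding protein, differed by -0.61 ± 0.21 (SE) and CDC40, a splicing factor, by -0.56 ± 0.21, with -0.34 without the arrays with HINTW signal. FAM177A1 differed by -0.66 ± 0.15, RWDD1 by -0.59 ± 0.16 and ZBTB42 by -0.55 ± 0.16. HIST1H2B5L, a histone H2B gene, differed by -0.55 ± 0.21, and histone copies of near-identical sequence may share its probes. The cluster of FBXO38 with a small p was chosen after its values were seen: it was at 2.14, 2.12, 2.0 and 2.50 in the restricted pools, against 2.95, 3.34, 2.95 and 3.56 in the normal pools, a difference of -1.01 ± 0.18. In this cluster all restricted pools lay under the brightness limit, so no fold is given. With the offset added before the logarithm its difference was -0.296. The brighter FBXO38 cluster differed by -0.07 ± 0.16, so the clusters of this gene disagreed.

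**Figure D2:**
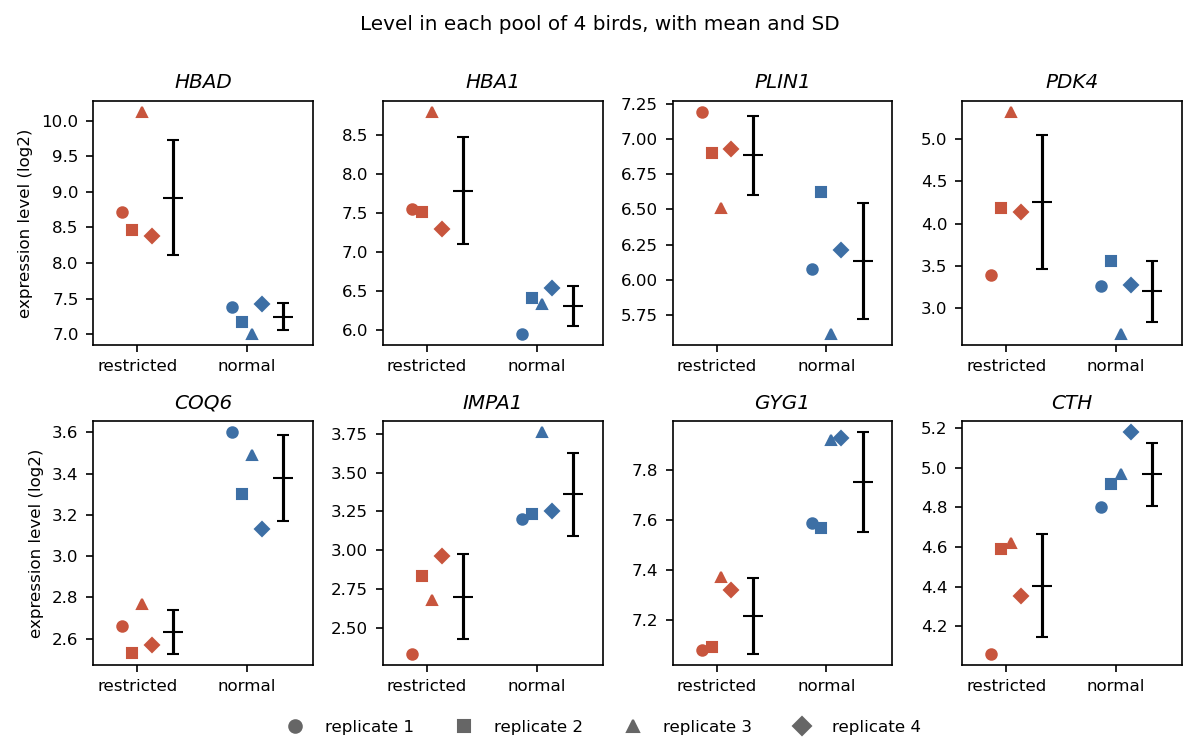
Expression level (log2) of 8 genes in each pool of 4 birds, restricted on the left and normal on the right of each panel, with the replicate number as the symbol and the mean and SD as the bar. HBAD and HBA1 are higher and COQ6, IMPA1, GYG1 and CTH lower in all 4 restricted pools, while pools of PLIN1 and PDK4 overlap.

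**Figure D3:**
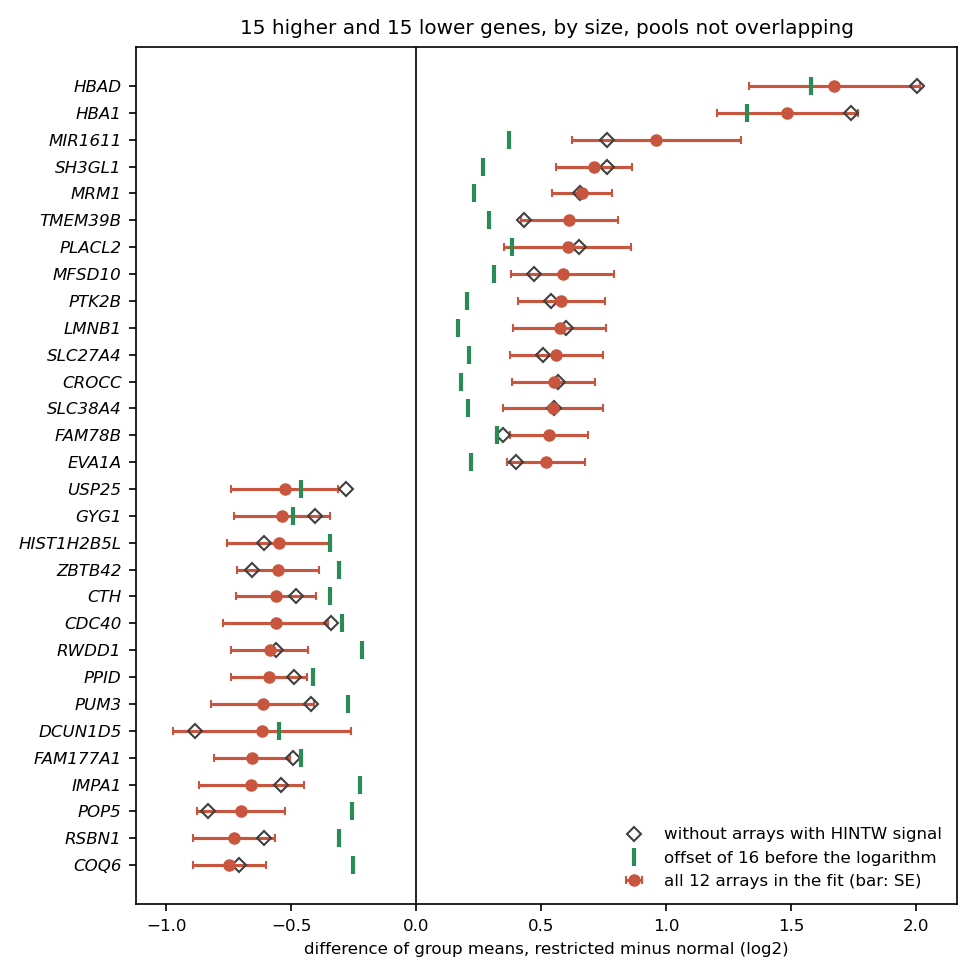
Difference of group means (restricted minus normal, log2) of the 30 named genes with non-overlapping pools, as circles with SE bars, beside the difference without the arrays with HINTW signal (diamonds) and with an offset of 16 (ticks). The globins stay above 1 in each. Because the 30 genes were chosen for pools that did not overlap, neither alternative could change their direction.

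Genes that handle phosphate, calcium and vitamin D lay on both sides of no difference. Of 29 tested, 16 lay above 0 and 13 under it, with a median of 0.013, which was -0.043 without the arrays with HINTW signal. Of the 29, 1 had an unadjusted p under 0.05 and was higher, where 2.6% of all clusters were higher and 2.71% lower at that threshold. Some phosphate carriers and PHOSPHO1, chosen after their values were seen, were close to equal on both diets. A set chosen this way does not describe phosphate transport as a whole. XPR1, the phosphate exporter, was at 7.90, 8.08, 7.94 and 7.82 in the restricted pools, against 7.66, 7.95, 7.99 and 8.09 in the normal pools, a difference of 0.01 with a 95% interval from -0.25 to 0.27. SLC20A2, a sodium-dependent phosphate importer, differed by -0.01 (95% interval -0.33 to 0.32) and its relative SLC20A1 by 0.15 (-0.25 to 0.54). SLC25A3, which brings phosphate into mitochondria, differed by -0.03 (95% interval -0.29 to 0.22) and PHOSPHO1, a phosphatase of mineralising tissue, by 0.00 (-0.31 to 0.31). The pools of all 5 genes overlapped, and differences up to the ends of these intervals could not be told from none.

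The member of this list with the smallest p was ENPP2, autotaxin, which makes lysophosphatidic acid. It was at 3.44, 4.37, 4.07 and 4.18 in the restricted pools, against 3.76, 3.61, 3.04 and 3.05 in the normal pools (0.65 ± 0.23, SE, limma adjusted p = 0.904). Restricted replicates 2 to 4 lay above every normal pool, and restricted replicate 1 did not. STC2, a stanniocalcin, a hormone family known from fish for its part in calcium balance, differed by 0.41 ± 0.20. GC, the vitamin D binding protein, differed by 0.30 ± 0.16 and SLC8A3, a sodium-calcium exchanger, by 0.21 ± 0.13, all with overlapping pools. STC2 and GC averaged 2.59 and 2.57 in normal muscle, under the brightness limit. With the offset added before the logarithm STC2 differed by 0.129 and GC by 0.090. Leaving out a pool gave 0.19 for GC, without restricted replicate 1, and 0.10 for SLC8A3, without restricted replicate 2.

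Among enzymes that make or break down inositol phosphates, 13 of 31 lay above 0 and 18 under it, with a median of -0.035, which was 0.050 without the arrays with HINTW signal. IMPA1, the phosphatase that frees inositol from its monophosphate, was at 2.33, 2.83, 2.68 and 2.96 in the restricted pools, against 3.20, 3.23, 3.76 and 3.25 in the normal pools. The difference was -0.66 ± 0.21 (SE), the pools did not overlap, and with the offset of 16 it was -0.22. IMPA1 was the 1 member with pools apart and lower (3.23% of this list, against 1.15% of all clusters). PPIP5K1, which adds a pyrophosphate to inositol phosphates, was at 4.19, 3.96, 3.72 and 4.07 in the restricted pools, against 3.62, 3.30, 3.92 and 3.23 in the normal pools (0.47 ± 0.17). One normal pool, replicate 3, lay among the restricted pools. PLCG1, a phospholipase C, differed by 0.33 ± 0.15, and INPP5D, an inositol phosphatase of blood cells, by 0.58 ± 0.28, with 0.35 without restricted replicate 4 and 0.39 without normal replicate 3.

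Calcium store and calcium signalling genes leaned slightly lower, with 15 of 36 higher and a median of -0.028, but without the arrays with HINTW signal 22 of 36 were higher and the median was 0.061. CAMK4, a calmodulin-dependent kinase, differed by 0.37 ± 0.16 (SE) and CAMK2D, another, by -0.23 ± 0.14, with -0.15 without normal replicate 3. The mean deviation of the list was -0.25 in restricted replicate 1, and between 0.01 and 0.04 in the other restricted pools.

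Most fast fibre genes lay slightly under 0, and of 24 tested 1 (4.17%) was higher and 3 (12.5%) lower at an unadjusted p under 0.05, against 2.6% and 2.71% of all clusters. Of 24 tested fast fibre genes 6 lay above 0 and 18 under it, with a median of -0.041. MYH1A, a fast myosin heavy chain, was at 8.92, 9.91, 9.36 and 9.82 in the restricted pools, against 9.84, 10.26, 9.74 and 10.48 in the normal pools (-0.58 ± 0.21, SE). Myosin genes of this cluster are much alike and may share probes. IGFN1, a protein of the Z-disc, differed by -0.33 ± 0.12, and NRAP, which helps assemble myofibrils, by -0.53 ± 0.23. MYLK2, the skeletal myosin light chain kinase, was at 8.50, 8.38, 8.23 and 8.01 in the restricted pools, against 7.91, 7.94, 8.09 and 7.87 in the normal pools (0.33 ± 0.13). Restricted replicates 1 to 3 lay above every normal pool for MYLK2, while for MYH1A the pools mingled. MYLK2 differed by 0.17 without the arrays with HINTW signal, and without restricted replicate 1 MYH1A differed by -0.38 and NRAP by -0.34.

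Slow fibre and stretch-response genes had 8 of 27 higher and 19 lower, with a median of -0.118. ANKRD2, a stretch-responsive protein of the sarcomere, differed by -0.41 ± 0.19 (SE; -0.25 without normal replicate 1), its relative ANKRD1 by -0.54 ± 0.26 (-0.29 without restricted replicate 1) and CSRP3, the muscle LIM protein, by -0.68 ± 0.37. Restricted replicate 1 had a mean deviation of -0.59 over this list, where the other restricted pools lay between -0.04 and 0.07 and the normal pools between -0.28 and 0.12. Without that pool the median difference was 0.000, and leaving out the arrays with HINTW signal gave -0.013.

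Fat cell and fat synthesis genes leaned higher, with 16 of 22 above 0 and a median of 0.109. For PLIN1, with 4 clusters on the array, only the brightest is given. PLIN1, which coats the fat droplet of adipocytes, was at 7.19, 6.90, 6.51 and 6.93 in the restricted pools, against 6.08, 6.62, 5.62 and 6.21 in the normal pools. The difference was 0.75 ± 0.19 (SE), or 1.68-fold, with a limma adjusted p of 0.894, and normal replicate 2 lay above restricted replicate 3. LPL, which frees fatty acids from lipoproteins, was at 6.58, 6.48, 6.40 and 6.93 in the restricted pools, against 6.36, 6.60, 5.20 and 6.11 in the normal pools (0.53 ± 0.28). The low normal replicate 3 weighs on this list: without it the median was 0.014, and the difference of LPL was 0.24. ADIPOQ, adiponectin, another adipocyte marker, differed by 0.19 ± 0.15, with 0.12 without restricted replicate 2, and PPARG was under the brightness limit in both groups.

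Fatty acid uptake and oxidation genes divided equally, 15 higher and 15 lower, with a median of -0.004, which was 0.084 without the arrays with HINTW signal. PDK4, a kinase that inhibits pyruvate dehydrogenase, was at 3.39, 4.18, 5.32 and 4.14 in the restricted pools, against 3.26, 3.56, 2.70 and 3.28 in the normal pools (1.06 ± 0.38, SE). Restricted replicates 2 to 4 lay above every normal pool, replicate 3 was more than 1 above the rest, and without it the difference was 0.70. PPARD, a nuclear receptor that drives fatty acid use, was at 5.05, 4.82, 5.14 and 4.79 in the restricted pools, against 4.65, 4.64, 4.38 and 4.70 in the normal pools (0.36 ± 0.14). Its pools did not overlap, nor did those of SLC27A4, named above among the largest differences. These 2 genes were the members with pools apart and higher (6.67% of this list, against 1.16% of all clusters). CRAT, carnitine acetyltransferase, differed by -0.34 ± 0.15, and by -0.12 without the arrays with HINTW signal. Among 44 genes of glycolysis, glycogen and phosphocreatine, 20 were higher and 24 lower. GYG1, which was lower, was the member with pools apart (2.27%, against 1.15% of all clusters). SLC16A1, a lactate carrier, differed by 0.46 ± 0.19, with 0.26 without restricted replicate 2.

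Extracellular matrix genes leaned higher in restricted muscle. Non-collagen matrix and fibroblast genes had 24 of 35 higher and a median of 0.147, collagens and their enzymes 23 of 33 and 0.093, and matrix proteases with their inhibitors 21 of 24 and 0.106, where the median was 0.235 without the arrays with HINTW signal. TNC, tenascin-C, a glycoprotein of tissue under remodelling, was at 4.74, 7.21, 5.83 and 6.72 in the restricted pools, against 5.74, 5.57, 3.87 and 4.39 in the normal pools (1.23 ± 0.56, SE). FN1, fibronectin, averaged 10.13 ± 0.68 in restricted and 9.40 ± 0.46 in normal muscle (SD, n = 4 each), a difference of 0.73 ± 0.34, with 0.44 without restricted replicate 2. For both genes restricted replicates 2 and 4 were the highest, normal replicates 3 and 4 the lowest, and the groups overlapped. The fibroblast markers PDGFRA and LUM were close to equal, with differences of 0.03 ± 0.19 and 0.03 ± 0.27 (SE) and overlapping pools.

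LAMC1, a basement membrane laminin, differed by 0.25 ± 0.11 (SE) and FMOD, fibromodulin, by 0.54 ± 0.27. COL21A1 differed by 0.45 ± 0.20, COL4A5, of basement membranes, by 0.31 ± 0.14, COL8A1 by 0.42 ± 0.21 and COL1A1, of the main fibrillar collagen, by 0.42 ± 0.21. TIMP3, a protease inhibitor, differed by 0.45 ± 0.19, the proteases ADAMTS1 and ADAMTS15 by 0.49 ± 0.24 and 0.39 ± 0.18, and HTRA1, another protease, by 0.34 ± 0.17. The pools of all 3 lists overlapped gene by gene, where only 1.16% of all clusters had pools apart and higher and 1.15% lower. Without normal replicate 3 FMOD differed by 0.23, COL1A1 by 0.23 and ADAMTS15 by 0.26, and without restricted replicate 4 TIMP3 differed by 0.28 and ADAMTS1 by 0.31. COL8A1 differed by 0.20 and ADAMTS1 by 0.84 without the arrays with HINTW signal. Mean deviations of the non-collagen matrix list were -0.25, 0.27, -0.01 and 0.26 in restricted replicates 1 to 4, against 0.06, 0.07, -0.33 and -0.21 in the normal pools, and its median was 0.001 without restricted replicate 4. The median of the collagen list was 0.025 without normal replicate 3.

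Chaperones leaned the other way, with 9 of 55 above 0, 46 under it and a median of -0.143. PPID, a cyclophilin that works with HSP90, was at 4.82, 4.81, 5.11 and 4.92 in the restricted pools, against 5.39, 5.27, 5.83 and 5.53 in the normal pools, a difference of -0.59 ± 0.15 (SE, limma adjusted p = 0.894) with pools apart. HSPD1, the mitochondrial chaperonin, was at 5.73, 6.02, 6.17 and 5.87 in the restricted pools, against 6.14, 6.16, 6.40 and 6.48 in the normal pools (-0.35 ± 0.15). Restricted replicate 3 overlapped with normal replicates 1 and 2 for HSPD1. DNAJC7, a co-chaperone, differed by -0.38 ± 0.15, GRPEL1, of mitochondrial import, by -0.31 ± 0.13, and DNAJC3, of the endoplasmic reticulum, by -0.27 ± 0.14 with pools apart. PPID and DNAJC3 were the 2 chaperones with pools apart and lower (3.64% of the list, against 1.15% of all clusters). Without the arrays with HINTW signal 21 of 55 were higher, the median was -0.033 and DNAJC7 differed by -0.22, and without restricted replicate 1 the median was -0.077.

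Proteasome genes had 6 of 29 higher and 23 lower, with a median of -0.107, and without the arrays with HINTW signal the count was the same and the median -0.180. PSMD12, a lid subunit of the 26S proteasome, differed by -0.41 ± 0.18 (SE) and UCHL5, a deubiquitinase bound to it, by -0.43 ± 0.20. These were -0.21 and -0.18 without the arrays with HINTW signal. PSMD7, another lid subunit, was at 7.79, 8.04, 7.94 and 7.77 in the restricted pools, against 8.05, 8.05, 8.25 and 8.26 in the normal pools (-0.27 ± 0.13). PSMD13, also of the lid, was at 6.76, 6.67, 6.72 and 6.80 in the restricted pools, against 6.46, 6.44, 6.12 and 6.65 in the normal pools (0.32 ± 0.15). These lid subunits both had pools apart, in opposite directions. Each direction held 1 gene, or 3.45% of the list, against 1.16% of all clusters higher and 1.15% lower. Atrophy, autophagy and protease genes had 11 of 30 higher and a median of -0.039, with UBE2B, a ubiquitin-conjugating enzyme, at -0.41 ± 0.18 and ULK1, an autophagy kinase, at -0.38 ± 0.19, which was -0.66 without the arrays with HINTW signal and -0.20 without restricted replicate 3.

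Immediate-early, glucocorticoid-induced and stress genes had 26 of 33 higher, with a median of 0.173, and immune cell genes 29 of 37, with a median of 0.130. BTG1, which restrains proliferation, was at 6.52, 7.44, 7.11 and 7.23 in the restricted pools, against 6.64, 6.81, 6.13 and 6.65 in the normal pools (0.52 ± 0.20, SE). FKBP5, a target of glucocorticoids, was at 3.17, 3.26, 5.12 and 3.39 in the restricted pools, against 2.82, 3.24, 3.02 and 2.91 in the normal pools, so that restricted replicate 3 set its difference of 0.74 ± 0.33. Without that pool the difference was 0.28, and without the arrays with HINTW signal 1.26. JUN, an immediate-early factor, differed by 0.29 ± 0.14, and NFKBIA, an inhibitor of NF-kappaB, by 0.32 ± 0.16, with 0.21 without normal replicate 3.

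CD72, a lymphocyte receptor, was at 3.31, 3.01, 3.07 and 3.11 in the restricted pools, against 2.85, 2.40, 2.71 and 2.83 in the normal pools (0.43 ± 0.13, SE). It was the immune gene with pools apart (2.7% of the list, against 1.16% of all clusters). Its normal pools lay near the brightness limit. The tested lymphocyte markers CD3E, CD8A, CD79B and CD3D differed by 0.188, 0.040, 0.023 and -0.235, with overlapping pools. TAPBP, of antigen loading, differed by 0.34 ± 0.18, while TAP1, also of antigen loading, was lower and differed by -0.29 ± 0.18. C1QC, a complement component made by macrophages, differed by 0.48 ± 0.28, with 0.30 without restricted replicate 4 and 0.29 without normal replicate 3. Restricted replicate 4 had the highest mean deviation in both lists, 0.35 for stress genes and 0.48 for immune genes. Without it the medians were 0.042 for stress genes and -0.002 for immune genes, and without the arrays with HINTW signal 0.295 and 0.245.

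Mitochondrial genes were lower more often than higher. Oxidative phosphorylation subunits had 16 of 51 higher and 35 lower, with a median of -0.063. NDUFS4, a complex I subunit, was at 6.45, 6.73, 6.63 and 6.35 in the restricted pools, against 6.77, 6.90, 6.95 and 7.25 in the normal pools (-0.43 ± 0.15, SE). NDUFS4 was the 1 subunit with pools apart and lower (1.96% of the list, against 1.15% of all clusters). Another complex I subunit, NDUFB5, differed by -0.26 ± 0.13. Without restricted replicate 4 the median of the subunits was 0.013 and NDUFB5 differed by -0.17, while without the arrays with HINTW signal the median was -0.117. Coenzyme Q enzymes had 2 of 11 higher and 9 lower, with a median of -0.095, which was -0.195 without the arrays with HINTW signal. Besides COQ6, COQ7 differed by -0.27 ± 0.18, COQ5 by -0.22 ± 0.18, COQ3 by -0.21 ± 0.20 and COQ10B by -0.32 ± 0.31. COQ2, COQ8A, COQ10A, PDSS1 and PDSS2 differed by -0.10 to 0.02, and COQ4 by 0.16 ± 0.19, and the pools of each of these 10 genes overlapped. COQ4 differed by -0.13 without the arrays with HINTW signal, and COQ7 by -0.13 without normal replicate 4.

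Other lists held few genes that stood apart. Sulfur amino acid and glutathione genes had 16 of 40 higher and a median of -0.024. There MAT1A, which makes S-adenosylmethionine, differed by -0.67 ± 0.28 (SE), MGST1, a glutathione transferase, by 0.45 ± 0.21 and CHAC1, which degrades glutathione, by 0.82 ± 0.40, with 0.28 without restricted replicate 3 and 1.52 without the arrays with HINTW signal. Growth pathway genes had 19 of 48 higher and a median of -0.041, or 25 of 48 and 0.022 without the arrays with HINTW signal, with BMP4, a growth factor, at 0.41 ± 0.14 and PRKAB1, a subunit of AMP-activated kinase, at -0.49 ± 0.18. Cell cycle genes had 23 of 30 higher and a median of 0.063, with PLK1, a mitotic kinase, at 0.34 ± 0.14 and E2F1, which starts replication, at 0.40 ± 0.18, and the median was 0.001 without restricted replicate 4. Cytosolic ribosomal proteins had 21 of 49 higher and a median of -0.038. None of them had an unadjusted p under 0.05 in limma, where 2.6% of all clusters were higher and 2.71% lower at that threshold.

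The vessel list, which also held oxygen-sensing genes such as EGLN3, EPAS1 and VHL, had 16 of 28 higher. Its median was 0.051, and 0.145 without the arrays with HINTW signal. Pools were apart for 2 members that were higher (7.14%) and 1 that was lower (3.57%), against 1.16% and 1.15% of all clusters. The lower member was EGLN3, which is not a vessel marker. RGS4, a regulator of G protein signalling in vessel walls, was at 3.18, 2.83, 2.71 and 2.99 in the restricted pools, against 2.36, 2.50, 2.57 and 2.33 in the normal pools (0.49 ± 0.14, SE). All normal pools of RGS4 lay under the brightness limit, and with the offset of 16 it differed by 0.14. EGLN3, an oxygen-sensing prolyl hydroxylase, was at 5.0, 4.72, 4.93 and 4.83 in the restricted pools, against 5.05, 5.28, 5.35 and 5.51 in the normal pools (-0.43 ± 0.14). KCNJ8, a potassium channel of pericytes, differed by 0.30 ± 0.16, with pools apart, and by 0.18 without restricted replicate 1. Other vessel wall genes of the list went both ways, with overlapping pools. ABCC9 differed by -0.265 ± 0.134, CSPG4 and TAGLN each by -0.225, PDGFRB by 0.280 and RGS5 by 0.202. The endothelial markers PECAM1, CDH5, VWF and KDR differed by 0.040, -0.055, -0.083 and 0.197. Without normal replicate 3 the median of the vessel list was -0.014. Myogenic regulators had 16 of 30 higher and a median of 0.006. The nerve and Schwann cell list had 6 tested members, of which UCHL1, a neuronal ubiquitin hydrolase, differed by -0.66 ± 0.30, with -0.38 without normal replicate 2. Cartilage and bone markers had 6 of 8 higher and a median of 0.080. None of the 8 had an unadjusted p under 0.05 in limma, against 2.6% of all clusters higher and 2.71% lower.

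**Figure D4:**
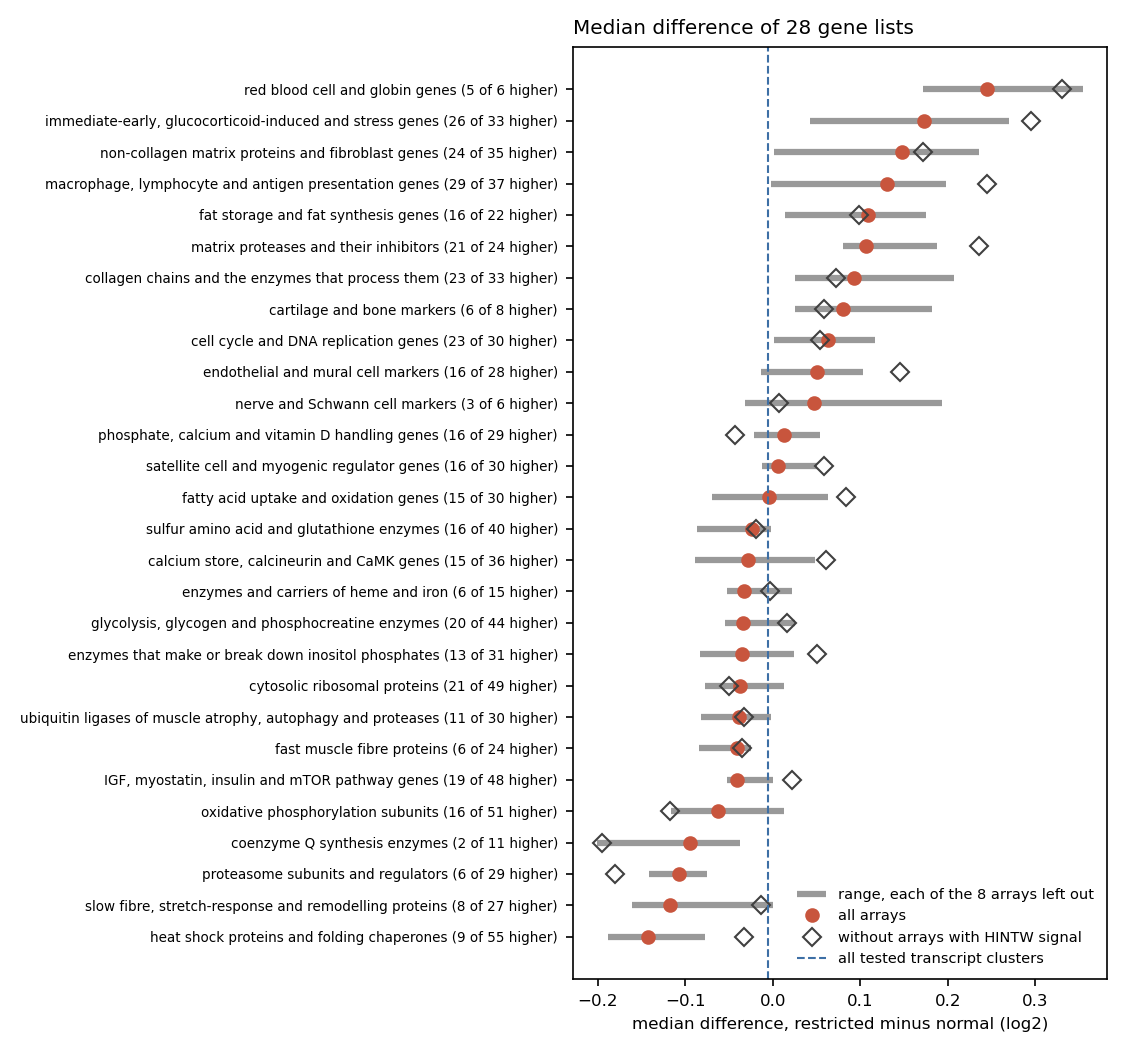
Median difference (restricted minus normal, log2) of 28 gene lists, as circles, with the range over leaving out each of the 8 arrays (grey bars), the value without the arrays with HINTW signal (diamonds) and the median of all tested clusters (dashed line). Red cell genes are highest at 0.245 and chaperones lowest at -0.143, and the chaperone value is -0.033 without the arrays with HINTW signal.

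**Figure D5:**
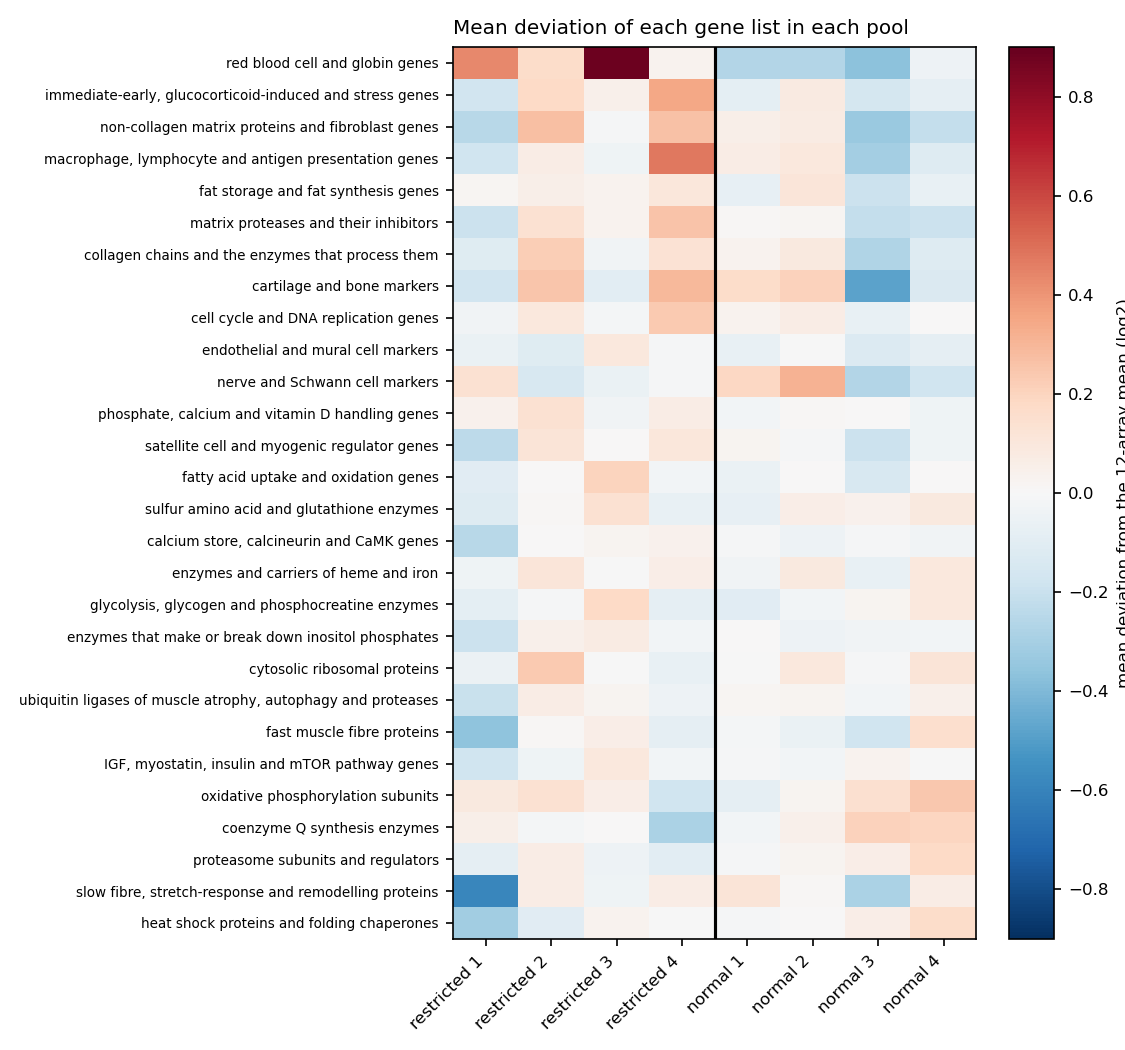
Mean deviation of each gene list from the 12-array mean (log2, colour scale) in the 4 restricted pools, on the left, and the 4 normal pools, on the right. The mean of the 6 red cell genes, which follows its 2 globins, is above 0 in all 4 restricted and below 0 in all 4 normal pools. Slow fibre genes are lowest in restricted replicate 1, at -0.59.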

How the data were processed

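Values were measured on Affymetrix arrays, 1 per pool of 4 birds, from 100 mg of muscle and 100 ng of total RNA per the labels. The deposited values are normalized levels per transcript cluster on a log2 scale, per the submitters' processing notes made with GCRMA and Affymetrix Expression Console. No source used here states the base of the logarithm, and values between 0.83 and 14.36 led to base 2. Normal replicate 1 has no diet characteristic, so its group was taken from its title. Transcript clusters whose 12-array mean reached the 40th percentile (2.67) entered limma 3.58.1 (R 4.3.3), with 1 mean per diet over 12 arrays, an intensity trend and Benjamini-Hochberg adjustment. The code of the fit was also run on simulated data, with independent noise of the same spread in every array. That setting lacked the uneven spread and shared W-linked signal of these pools, so it does not bear on them.

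Names came from the platform annotation: 12300 clusters had 1 symbol, 256 several and 8248 none, and 11727 matched RefSeq's GRCg7b table, used for chromosomes. Values equal to those of another cluster occurred in 1644 clusters. For genes with several clusters, such as TNC and FN1 with 2 each, the brightest is given unless stated. Members and lists were chosen with earlier results of these data known. Named were the 15 largest differences each way among genes with pools apart, and in each of 29 lists up to 4 members with the smallest p, those with pools apart, and cell type markers. Alternatives were other filters, normalizations, priors and weights, an offset of 16, a replicate block, a HINTW term, and leaving out arrays.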

Additional observations from a re-analysis of the deposited data

Results flagged for a closer look

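In 310 groups of 4 pools, of the named genes and of the lists' mean deviations, 12 held a pool far from the other 3 by Dixon's criterion, where chance gives about 1 in 20, or 15.5. Restricted replicate 3 had FKBP5 at 5.12, with the other restricted pools between 3.17 and 3.39. Restricted replicate 1 had PLCG1 at 2.99, the others 3.57 to 3.63, a mean deviation of calcium store genes of -0.25, the others 0.01 to 0.04, and of slow fibre genes of -0.59, the others -0.04 to 0.07. Restricted replicate 2 had SLC8A3 at 4.39, the others 3.93 to 4.00, and restricted replicate 4 had JUN at 6.60, the others 6.21 to 6.27. Among normal pools, IMPA1 was at 3.76 in replicate 3, the others 3.20 to 3.25, and UBE2B at 6.06 in replicate 4, the others 5.53 to 5.55. ADIPOQ was at 7.08 in normal replicate 2, the others 6.67 to 6.72, and HIST1H2B5L at 5.43 in normal replicate 1, the others 5.03 to 5.09. TTN was at 11.58 in normal replicate 2, the others 11.77 to 11.80, and HINTW at 2.70 in normal replicate 1, the others 2.32 to 2.35. The causes were not tested.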

How the results depend on the processing

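The count of clusters at an adjusted p under 0.05 in limma was 0 in the fit described and in all 22 alternatives. The count at an unadjusted p under 0.05, 662, was 1040 without a filter on dim clusters, where 20804 were tested, and ranged from 440 without normal replicate 3 to 1073 without restricted replicate 3 when each pool was left out. It was 623 with the replicate block, 622 with a HINTW term and 727 without the arrays with HINTW signal. With only the 8 restricted and normal arrays in the fit it was 526, under the 624 expected without any effect. The smallest limma adjusted p was then 0.523. Pools with the same replicate number had correlated deviations of -0.01, 0.06, 0.18 and -0.09, so the numbers were not taken as pairs. For 127 of the named genes 2767 values were computed under the alternatives, and 0 passed the adjusted threshold. Direction changed in 56 of these values, in 17 genes, all with a difference under 0.2 except HINTW, and the offset of 16 shrank 64 of the 127 by over 1.5 times. Genes with pools apart could not change direction when pools were left out or the offset was added. Without the arrays with HINTW signal COQ4 was at -0.125, LMO2 at -0.028, PDSS1 at -0.005, PDSS2 at 0.170, PHOSPHO1 at -0.130, SLC20A2 at 0.062, TTN at 0.013, TTR at 0.278 and XPR1 at -0.043. With a HINTW term COQ2 was at 0.083, LMO2 at -0.128, PDSS2 at 0.205, PHOSPHO1 at -0.126, SLC20A2 at 0.034, TTR at 0.353, XPR1 at -0.063 and HINTW, by construction, at 0. Median centring gave PHOSPHO1 -0.013 and XPR1 -0.003, array weights PHOSPHO1 -0.007, SLC20A2 0.063 and TTR 0.026, quantile normalization PDSS2 0.003 and ACTA1 0, and the offset TTR 0. Leaving out each pool gave ranges across 0 for FBXO38 (-0.175 to 0.028), LMO2 (-0.011 to 0.369), PDSS1 (-0.012 to 0.068), PDSS2 (-0.167 to 0.128), PHOSPHO1 (-0.053 to 0.083), SLC20A2 (-0.124 to 0.070), SLC25A3 (-0.113 to 0.023), TNNC1 (-0.058 to 0.015), TNNC2 (-0.075 to 0.035), TNNT3 (-0.061 to 0.026), TTR (-0.479 to 0.188) and XPR1 (-0.075 to 0.068). Of 616 list medians under the alternatives 614 moved by less than the larger SD of the list's mean deviations within a diet. For many lists this SD exceeded the median itself, such as 0.377 against 0.245 for red cell genes. A median could thus fall to 0 and count as unmoved, so the count does not show stability. Of 28 medians 6 changed sign without the arrays with HINTW signal, and up to 6 when a pool was left out. The 2 medians that moved further than the SD were phosphate and calcium genes with a HINTW term, at -0.061, and vessel genes without the arrays with HINTW signal, at 0.145. Dim signal and 4 pools per diet limit the precision, and the causes of these shifts were not tested.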
